A study of Homo sapiens with 32 samples.

Results

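The genes described here were 51 listed genes of 2 linked programs, the interferon-stimulated genes and the genes of major histocompatibility complex (MHC) class I antigen presentation, out of 48804 genes in the count table. They were taken by symbol from a list and all 51 were found in the table. By role they comprised 39 interferon-stimulated genes, 11 class I genes and CD274. Of these, 50 passed the filter on low counts and were tested at each time point. The exception was IFI16, a sensor of DNA, which had at most 4 counts in any library.

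The cells were MDA-MB-468, an established human cell line of triple negative breast cancer, which lacks the estrogen and progesterone receptors and HER2 amplification. They received PBS (control), salinomycin (Sal, 0.5 μM), dasatinib (Das, 15 μM) or the drug combination (S + D) at these concentrations, for 24 or 72 h. Sal is a polyether ionophore antibiotic, and Das is an inhibitor of SRC and ABL family tyrosine kinases. Each of the 8 conditions had 4 libraries from biological replicates, of which 3 carried a number and 1 did not. All the cells were of the same line, grown in the same serum-containing medium, and no interferon was among the labelled treatments. The paper states that the drug stocks were made in DMSO, at a small final share. Whether the PBS control also held DMSO is not given, so an effect of DMSO cannot be told apart from that of the drugs. The question was how the genes of both programs differed between drug-treated and control cells, and between the combination and either drug.

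Cells that detect viral nucleic acid through sensors such as RIGI and IFIH1 secrete interferons, which signal through their receptors, JAK kinases and STAT factors to switch on interferon-stimulated genes. The products of these genes block viral replication at several steps, and many cancer cells express part of the program in culture. Class I molecules display peptides at the cell surface to T cells. The peptides are cut by the proteasome, in which PSMB8 and PSMB9 are immune-type subunits, carried into the endoplasmic reticulum by TAP1 and TAP2, and loaded with the help of TAPBP onto a heavy chain paired with B2M. IRF1 is a transcription factor and NLRC5 a transactivator of class I genes. Many genes of both programs carry a binding element for interferon regulatory factors and STAT complexes (ISRE).

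A library held from 25692561 to 42769687 counts, and levels are given as CPM, counts scaled to the library's size with TMM factors. The unnumbered libraries stood apart. Their deviations from the mean of their condition correlated with each other at 0.52 to 0.67 across genes, where the libraries that share a number correlated at -0.03 to 0.32. Counts of called members are therefore also given for the 3 numbered libraries of each condition. The shares of all genes given beside the counts come from the main edgeR test with all libraries. No such share is given for the numbered libraries or any other fit, so those counts cannot be set against all genes. Each comparison was also refitted without each library in turn (leave-one-out fits), and calls that such a fit ended are named with the libraries concerned, which were left out 1 at a time. Epithelial markers (EPCAM, KRT8, KRT18, KRT19, KRT7, CDH1 and EGFR) were present in every library. At 72 h they summed to 11760 to 12900 CPM in the control, 7284 to 8066 with Sal, 8479 to 10900 with Das and 5474 to 6960 with S + D. Of the 7 markers, 4, 2 and 5 were called lower with Sal, Das and S + D, where 26.8%, 9.36% and 27.9% of all genes fell. The part of this fall in the results was not tested. Among the immune markers looked at, PTPRC and CD3E had at most 5 and 2 counts in any library, while CD14 and ITGAM were detected. The immune markers summed to 26.7 to 34.2 CPM in the control at 72 h and to 6.02 to 18.0 for Sal, 2.64 to 4.68 for Das and 3.85 to 5.64 for S + D, and the part of this fall in the results was not tested. Of 5 fibroblast markers COL1A1 and PDGFRB were detected, COL1A2, DCN and LUM had at most 5 counts, and the list summed to 23.8 to 32.5 CPM in the control at 72 h and 68.8 to 122 with S + D. In bulk RNA, fewer cells expressing a gene and less of its RNA per cell cannot be told apart.

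The ISRE core (GAAANNGAAA on either strand) was searched in RefSeq promoters of GRCh38.p14, from 250 bases before to 50 bases after each annotated start. It was present for 29 of the 41 members with a promoter in the table (70.7%) and for 4.38% of the 27305 genes searched, counting all annotated starts of a gene. With only the first listed start, it was present for 26 members (63.4%) and 3.65% of genes. The gamma-activated site (TTCNNNGAA, its own reverse complement) was present for 13 members (31.7%) and 9.38% of genes. A match is a description of the letters and not a shown binding site. The stretches that end at the first listed start are shown for genes that carry the findings below, with ISRE cores in capitals on either strand and overlapping cores joined. A core that crosses the start is not marked, which leaves out a further core of IFITM1. IFIT1 and IFI44L rose with Sal at 72 h and the other 6 genes fell. Every stretch shown holds the core, so these genes cannot tell whether the core goes with a direction. Among other members that fell with Sal at 72 h, OAS1, XAF1, RIGI, IRF1, HLA-B and HLA-C had no core. OAS2, OASL, GBP2 and HLA-E had no promoter in the table. Of the other members that rose, IFIH1 had the core, and IFIT2 and IRF7 had no promoter in the table.
IFIT1 (chr10:89392493-89392622, plus strand): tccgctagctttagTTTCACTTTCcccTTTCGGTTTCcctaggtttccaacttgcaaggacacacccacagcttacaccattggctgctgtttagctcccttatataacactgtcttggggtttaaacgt
IFI44L (chr1:78620278-78620447, plus strand): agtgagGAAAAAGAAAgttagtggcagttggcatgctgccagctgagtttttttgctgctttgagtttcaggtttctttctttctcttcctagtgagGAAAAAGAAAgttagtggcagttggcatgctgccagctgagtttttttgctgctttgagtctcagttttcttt
IFIT3 (chr10:89327837-89327996, plus strand): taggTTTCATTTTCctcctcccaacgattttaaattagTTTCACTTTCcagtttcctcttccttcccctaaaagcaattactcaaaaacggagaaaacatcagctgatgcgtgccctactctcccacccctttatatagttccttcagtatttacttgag
IFITM1 (chr11:313980-314039, plus strand): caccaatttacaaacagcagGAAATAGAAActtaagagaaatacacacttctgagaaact
OAS3 (chr12:112938324-112938473, plus strand): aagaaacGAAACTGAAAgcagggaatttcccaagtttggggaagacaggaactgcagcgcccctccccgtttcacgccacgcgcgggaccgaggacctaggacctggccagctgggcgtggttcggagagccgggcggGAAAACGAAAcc
GBP1 (chr1:89065209-89065348, minus strand): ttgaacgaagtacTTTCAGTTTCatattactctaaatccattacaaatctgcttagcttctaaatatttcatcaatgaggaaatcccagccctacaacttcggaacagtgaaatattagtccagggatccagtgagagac
B2M (chr15:44711367-44711516, plus strand): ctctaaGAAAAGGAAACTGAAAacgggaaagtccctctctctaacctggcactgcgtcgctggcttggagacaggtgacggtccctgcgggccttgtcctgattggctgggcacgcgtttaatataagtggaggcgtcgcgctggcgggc
TAP1 (chr6:32853705-32853844, minus strand): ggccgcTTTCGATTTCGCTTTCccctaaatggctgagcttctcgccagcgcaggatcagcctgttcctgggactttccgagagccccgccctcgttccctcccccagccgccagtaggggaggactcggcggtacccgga

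At 72 h most called members were lower than in the control. With Sal, 5 members rose and 25 fell of 50 tested, against 26.3% and 26.8% of all genes tested (edgeR quasi-likelihood test, adjusted p under 0.01). With Das, 1 member rose and 21 fell of 50 tested, against 10.5% and 9.36% of all genes. With S + D, 4 members rose and 24 fell of 50 tested, against 27.0% and 27.9% of all genes. The median log2 fold change of the members was -0.59 with Sal, -0.60 for Das and -0.59 with S + D, where the median of all genes was 0.00, 0.02 and 0.01. The numbered libraries alone gave 4 higher and 24 lower members for Sal, 0 and 24 for Das, and 5 and 26 for S + D.

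With an absolute log2 fold change above 1.5 also required, 2 members rose and 10 fell with Sal, where 9.23% and 9.45% of all genes did so. With Das the counts were 0 and 2, against 2.69% and 2.34% of all genes. With S + D they were 2 and 10, against 9.69% and 10.5%, and the 2 included IFI27, which passed the filter only through its S + D libraries. The Das libraries at 72 h were uneven. Replicate 3 was the highest of the 4 for 12 of the 21 members that fell, and without it 6 members in place of 2 passed both cutoffs.

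**Figure D1:**
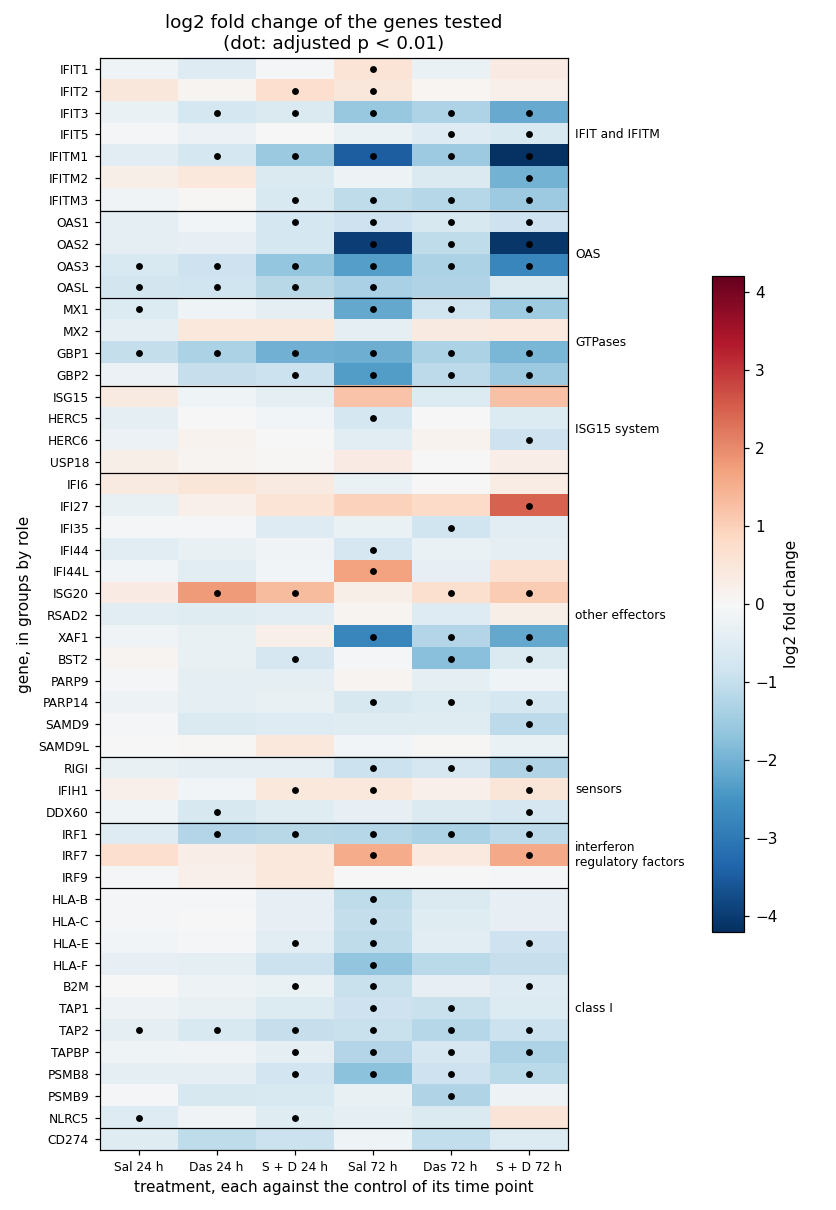
Log2 fold change of the 50 tested members (rows, in groups by role) in each treatment against the control of its time point (columns), with blue for lower and red for higher and a dot where the adjusted p was under 0.01. The darkest blue cells are OAS2 and IFITM1 with Sal and with S + D at 72 h, between -3.46 and -4.15, and each dot is a call in the fit of the 16 libraries of that time point.

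The OAS genes encode enzymes that make the second messenger that activates RNase L, an RNA-degrading enzyme, with OASL as a family member without this activity. All 4 fell with Sal at 72 h. OAS2 (GRCh37 chr12:113416200-113449528) stood at 10.4, 10.6, 9.68 and 9.88 CPM in control replicates 1, 2, 3 and the unnumbered library at 72 h, an order kept below. It stood at 0.560, 0.631, 0.425 and 0.991 CPM with Sal and at 0.480, 0.524, 0.388 and 0.983 CPM with S + D. Neither treated group overlapped with the control, and the unnumbered library was the highest of each. The fall was 15.4-fold with Sal (log2 fold change -3.94, SE 0.33, adjusted p = 4.44e-08) and 17.1-fold with S + D (log2 fold change -4.10, SE 0.33, adjusted p = 2.33e-08). The Das libraries stood at 3.14, 3.36, 6.75 and 6.22 CPM, also below the control (log2 fold change -1.06, SE 0.28, adjusted p = 0.00698). The Das call held except without control replicates 1, 2 and 3, the unnumbered control library and Das replicates 1 and 2, the adjusted p reaching 0.0306. OAS3 (chr12:113375856-113414265), the neighbour of OAS2, stood at 65.8, 61.2, 66.1 and 75.2 CPM in the control, 13.4, 11.9, 11.6 and 17.7 for Sal, 15.6, 17.4, 45.1 and 27.9 for Das and 7.94, 9.66, 10.6 and 12.4 for S + D. It fell in all 3 treatments, with log2 fold changes of -2.31, -1.34 and -2.74 (SE 0.27, 0.26 and 0.27). OAS1 fell in all 3 treatments, by 0.86, 0.66 and 0.86 on the log2 scale. OASL, at a low level of 1.42 ± 0.836 CPM in the control, fell with Sal (log2 fold change -1.36, SE 0.36, adjusted p = 0.00287), a call held except without Sal replicate 1 and the unnumbered control library, the adjusted p reaching 0.0191.

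The IFITM genes encode membrane proteins that hinder virus entry, and the IFIT genes encode proteins that bind foreign RNA. IFITM1 (chr11:310041-315272) stood at 12.1, 11.3, 9.95 and 6.95 CPM in the control at 72 h, 0.525, 0.830, 0.850 and 1.42 for Sal, 1.62, 2.61, 5.81 and 3.85 for Das and 0.512, 0.498, 0.447 and 0.814 for S + D. All treated libraries lay below all controls, and the Das libraries lay between the control and the other groups. It fell with S + D (log2 fold change -4.15, SE 0.38, adjusted p = 9.22e-08), with Sal (log2 fold change -3.46, SE 0.37, adjusted p = 4.26e-07) and with Das (log2 fold change -1.54, SE 0.33, adjusted p = 0.00178). IFITM3 fell in all 3, from 246 ± 34.1 CPM to 120.4 ± 15.5 CPM with Sal, 109 ± 18.7 CPM with Das and 87.1 ± 10.6 CPM with S + D (SD, n = 4). IFITM2 stood at 8.81, 8.36, 8.51 and 3.42 CPM in the control and 2.43, 1.44, 2.21 and 1.29 with S + D, and fell with the combination (log2 fold change -2.0, SE 0.29, adjusted p = 9.74e-06). With Sal (log2 fold change -0.20, SE 0.27, adjusted p = 0.531) and Das (log2 fold change -0.62, SE 0.27, adjusted p = 0.0866) it did not pass the test. The IFITM genes resemble each other: of the 50-base windows of their transcripts, 25.2% for IFITM1, 20.7% for IFITM2 and 30.5% for IFITM3 also occur in other genes, so their split of reads is uncertain.

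The IFIT genes lie together on chromosome 10 and moved in opposite directions with Sal. IFIT3 (chr10:91087064-91137230) stood at 27.2, 26.6, 22.9 and 24.9 CPM in the control at 72 h, 7.14, 9.40, 8.47 and 9.05 for Sal, 9.20, 9.26, 13.1 and 10.3 for Das and 6.66, 4.98, 6.14 and 6.04 for S + D, with no overlap. It fell in all 3 treatments, by 1.59, 1.29 and 2.11 on the log2 scale with Sal, Das and S + D (adjusted p = 9.8e-08, 6.05e-06 and 6.46e-09). IFIT1 (chr10:91152303-91166244) stood at 9.74, 10.4, 9.15 and 9.02 CPM in the control and at 12.2, 15.0, 14.6 and 15.8 with Sal, where every library lay above every control (log2 fold change 0.57, SE 0.17, adjusted p = 0.00599). IFIT2 also rose with Sal (log2 fold change 0.46, SE 0.13, adjusted p = 0.00439). The call of IFIT1 held except without control replicates 1 and 3, the unnumbered control library, Sal replicates 2 and 3 and the unnumbered Sal library, the adjusted p reaching 0.018. The call of IFIT2 held except without control replicate 3, the unnumbered control library, Sal replicate 3 and the unnumbered Sal library, the adjusted p reaching 0.0187. Neither was called in the numbered libraries alone (adjusted p = 0.014 and 0.0242). IFIT5 fell with Das and S + D, by 0.53 and 0.63, the Das call being lost in the numbered libraries alone (adjusted p = 0.0117).

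**Figure D2:**
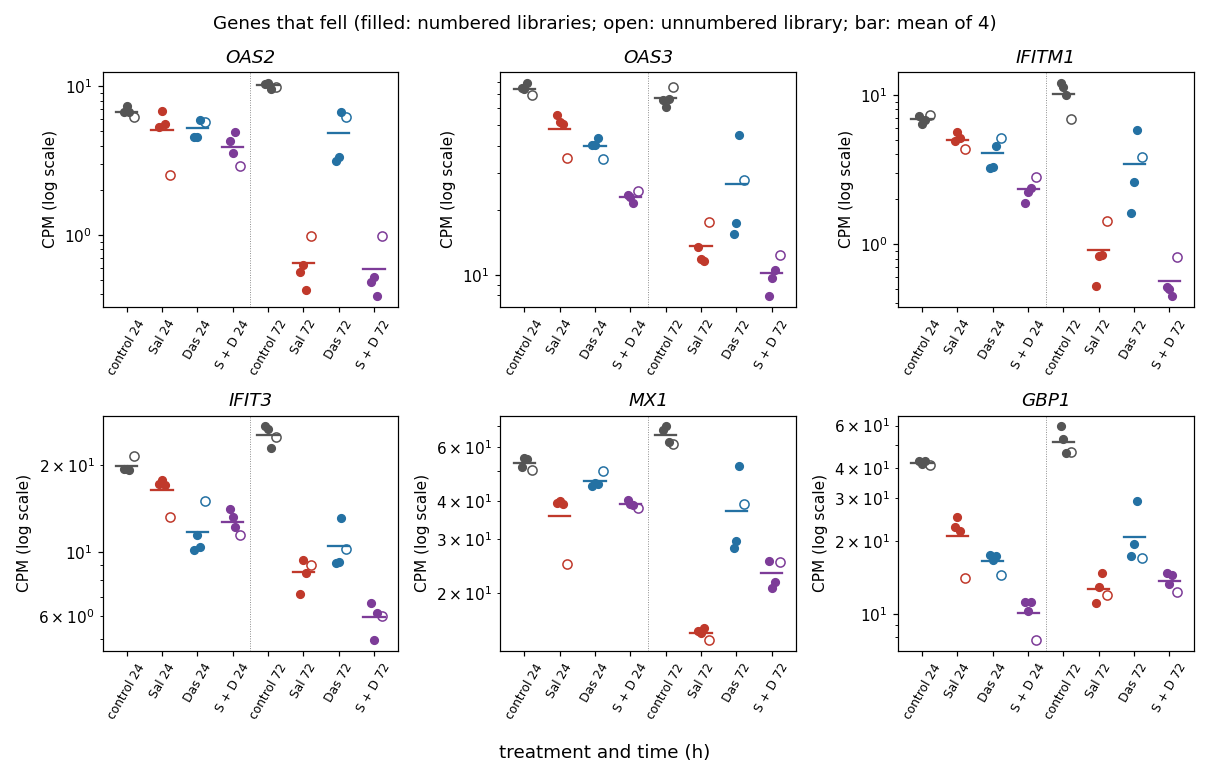
CPM on a log scale of 6 genes that fell, by treatment and time (filled points, numbered libraries; open points, unnumbered library; bars, mean of 4). OAS2 drops from 10.2 ± 0.445 CPM in the control to 0.652 ± 0.242 CPM with Sal at 72 h, and GBP1 is already at 10.1 ± 1.60 CPM with S + D at 24 h.

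MX1, a large GTPase that traps viral components, stood at 68.2, 69.9, 62.1 and 61.4 CPM in the control at 72 h, 15.0, 14.8, 15.4 and 14.1 with Sal and 25.5, 20.9, 21.8 and 25.2 with S + D. All treated libraries lay below the controls, and every S + D library lay above every Sal library, a difference that did not pass the direct test (log2 fold change 0.66, SE 0.16, adjusted p = 0.0164). Against the control it fell by 2.16 for Sal, 0.82 for Das and 1.503 for S + D on the log2 scale (adjusted p = 2.1e-08, 0.0008 and 3.85e-07). The guanylate binding proteins GBP1 and GBP2 act against intracellular pathogens and respond strongly to gamma interferon. GBP2 stood at 137, 128, 117 and 73.7 CPM in the control, 20.1, 22.7, 20.1 and 28.3 for Sal, 46.8, 54.8, 71.5 and 42.1 for Das and 48.7, 36.4, 38.7 and 37.0 for S + D. It fell in all 3 treatments, with Sal by 2.34 on the log2 scale (SE 0.20, adjusted p = 6.02e-08). Here too every S + D library lay above every Sal library, and the direct test did not pass (log2 fold change 0.82, SE 0.19, adjusted p = 0.0144). GBP1 (chr1:89517565-89531043) stood at 59.6, 52.9, 46.3 and 46.5 CPM in the control, 11.03, 12.8, 14.7 and 11.9 for Sal, 17.4, 19.4, 29.2 and 16.9 for Das and 14.7, 13.3, 14.5 and 12.3 for S + D. Its log2 fold changes were -2.04, -1.31 and -1.92, all called. MX2, at 1.70 ± 0.264 CPM in the control, was not called in any treatment.

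Among the other effectors, XAF1, which promotes apoptosis, stood at 2.28, 2.59, 2.45 and 1.64 CPM in the control at 72 h, 0.280, 0.365, 0.425 and 0.280 with Sal and 0.352, 0.890, 0.418 and 0.365 with S + D. It fell with both (log2 fold change -2.74, SE 0.36, adjusted p = 4.67e-06 for Sal and log2 fold change -2.14, SE 0.34, adjusted p = 3.23e-05 for S + D), and S + D replicate 2 was the highest of its group. With Das the change was -1.23, called except without control replicates 1, 2 and 3, Sal replicates 1 and 2, Das replicates 1 and 2, the unnumbered Das library and S + D replicate 3, the adjusted p reaching 0.0358. BST2, a tether of budding viruses, behaved otherwise. It stood at 21.0, 21.8, 23.2 and 17.7 CPM in the control, 26.2, 19.8, 20.1 and 16.3 for Sal, 4.73, 5.40, 5.38 and 9.09 for Das and 16.5, 12.9, 13.3 and 12.7 for S + D. It had the largest fall with Das among members (log2 fold change -1.77, SE 0.20, adjusted p = 6.16e-06), while Sal gave a log2 fold change of -0.04 (SE 0.19, adjusted p = 0.856). The fall of BST2 with S + D was called with all libraries (log2 fold change -0.61, SE 0.19, adjusted p = 0.00881). Of the leave-one-out fits, this call held only in those without the unnumbered control library, Sal replicate 1, the unnumbered Sal library, the unnumbered Das library and S + D replicate 1, the adjusted p reaching 0.0387 otherwise. PARP14, an ADP-ribosyltransferase, fell in all 3 treatments by 0.58 to 0.74. IFI44 fell with Sal (-0.70), IFI35 with Das (-0.83) and SAMD9 with S + D (-1.10). IFI6, RSAD2, PARP9 and SAMD9L were not called at 72 h.

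The sensors moved apart. RIGI fell in all 3 treatments at 72 h, by 0.90, 0.71 and 1.25 on the log2 scale with Sal, Das and S + D. IFIH1, the other main sensor of viral RNA in the cytoplasm, rose from 30.8 ± 1.96 CPM to 42.4 ± 6.12 CPM with Sal (log2 fold change 0.45, SE 0.13, adjusted p = 0.00607) and to 44.3 ± 1.45 CPM with S + D (log2 fold change 0.51, SE 0.13, adjusted p = 0.00223). DDX60, a helicase linked to this sensing, fell with S + D (-0.70). Of the ISG15 system, in which HERC5 attaches the ubiquitin-like ISG15 to proteins and USP18 removes it, HERC5 fell with Sal (-0.72) and HERC6, a related ligase, with S + D (-0.88). USP18 was not called in any comparison with the control in the edgeR test. At 72 h it stood at 11.85 ± 0.377 CPM in the control, 15.07 ± 1.13 with Sal and 14.38 ± 0.955 with S + D. Every library of these 2 treatments lay above every control. With Sal it was called higher by DESeq2 and with the replicate block. For members given by their fold change alone, leaving out 1 library ended the Sal calls of IFI44 (adjusted p up to 0.0145, without Sal replicate 2 and the unnumbered control library), HERC5 (up to 0.0238, without control replicate 2, the unnumbered control library and Sal replicates 1, 2 and 3) and IFIH1 (up to 0.0303, without control replicates 1 and 3, the unnumbered control library and Sal replicates 2 and 3). It ended the Das calls of OAS1 (up to 0.0322, without control replicates 1, 2 and 3, the unnumbered control library and Das replicates 1 and 2), IFIT5 (up to 0.0127, without control replicates 1 and 2, Das replicates 1 and 2 and the unnumbered Das library) and PARP14 (0.0102, without Das replicate 1), and the S + D call of DDX60 (0.0117, without the unnumbered control library). Of the leave-one-out fits, the Das call of IFI35 held only in those without Sal replicates 2 and 3, the unnumbered Sal library and the unnumbered Das library, the adjusted p reaching 0.0386 otherwise.

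ISG15 itself stood at 9.84, 9.92, 13.3 and 26.7 CPM in the control at 72 h, 28.4, 23.5, 18.9 and 66.5 for Sal, 7.99, 7.01, 4.29 and 21.2 for Das and 35.8, 26.0, 25.6 and 54.4 for S + D. In each of these groups the unnumbered library was the highest, and the groups overlapped. The change did not pass the test with Sal (log2 fold change 1.18, SE 0.47, adjusted p = 0.0362) or S + D (log2 fold change 1.23, SE 0.47, adjusted p = 0.0296). In the numbered libraries alone it did, with log2 fold changes of 1.07 (adjusted p = 0.000701) and 1.38 (adjusted p = 9.07e-05). With the replicate block, the adjusted p for S + D was 1.2e-05.

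Of the interferon regulatory factors, IRF1 and IRF7 went opposite ways. IRF1, a transcription factor of class I genes, stood at 66.7, 65.0, 70.1 and 90.1 CPM in the control at 72 h, 31.3, 27.4, 26.8 and 43.8 for Sal, 23.2, 24.0, 25.2 and 43.1 for Das and 32.9, 30.0, 31.9 and 41.5 for S + D. All treated libraries lay below all controls, with log2 fold changes of -1.19, -1.34 and -1.11. IRF1 shares 22.9% of its exon bases with its antisense gene, and whether the counting used strand is not given in the sources used here. IRF7, the factor that amplifies interferon production, stood at 22.3, 21.8, 28.3 and 24.4 CPM in the control, 80.1, 58.1, 51.8 and 97.2 with Sal and 78.2, 66.9, 65.5 and 85.1 with S + D. It rose 2.93-fold with Sal and 3.02-fold with S + D (log2 fold change 1.55, SE 0.23, adjusted p = 1.75e-05 and log2 fold change 1.59, SE 0.23, adjusted p = 1.24e-05), with no overlap. With Das it was not called (log2 fold change 0.41, SE 0.23, adjusted p = 0.177). IRF9, the partner of STAT factors on the ISRE, had log2 fold changes between -0.04 and -0.00 and was not called.

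A few effectors also rose. ISG20, an exonuclease, stood at 8.24, 9.13, 11.9 and 9.72 CPM in the control at 72 h, 13.0, 13.8, 14.0 and 21.5 for Das and 23.6, 20.1, 19.9 and 19.0 for S + D. It rose with S + D (log2 fold change 1.06, SE 0.17, adjusted p = 3.76e-05) and with Das (log2 fold change 0.67, SE 0.17, adjusted p = 0.0067), a call lost in the numbered libraries alone (adjusted p = 0.0351). The Das call of ISG20 held except without control replicates 1 and 2, the unnumbered control library and the unnumbered Das library, the adjusted p reaching 0.0266. IFI44L stood at 0.469, 0.397, 0.473 and 0.404 CPM in the control and 1.54, 1.33, 1.81 and 1.12 with Sal, and rose (log2 fold change 1.71, SE 0.33, adjusted p = 0.000193). IFI27 had only 3, 6, 4 and 9 counts in the control and 25, 21, 32 and 44 with S + D (log2 fold change 2.47, SE 0.63, adjusted p = 0.00228). It passed the filter on low counts at 72 h only through its S + D libraries, so this test cannot serve as support for a rise. IFI27 is counted among the 4 members that rose with S + D and the 2 that did so past both cutoffs.

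**Figure D3:**
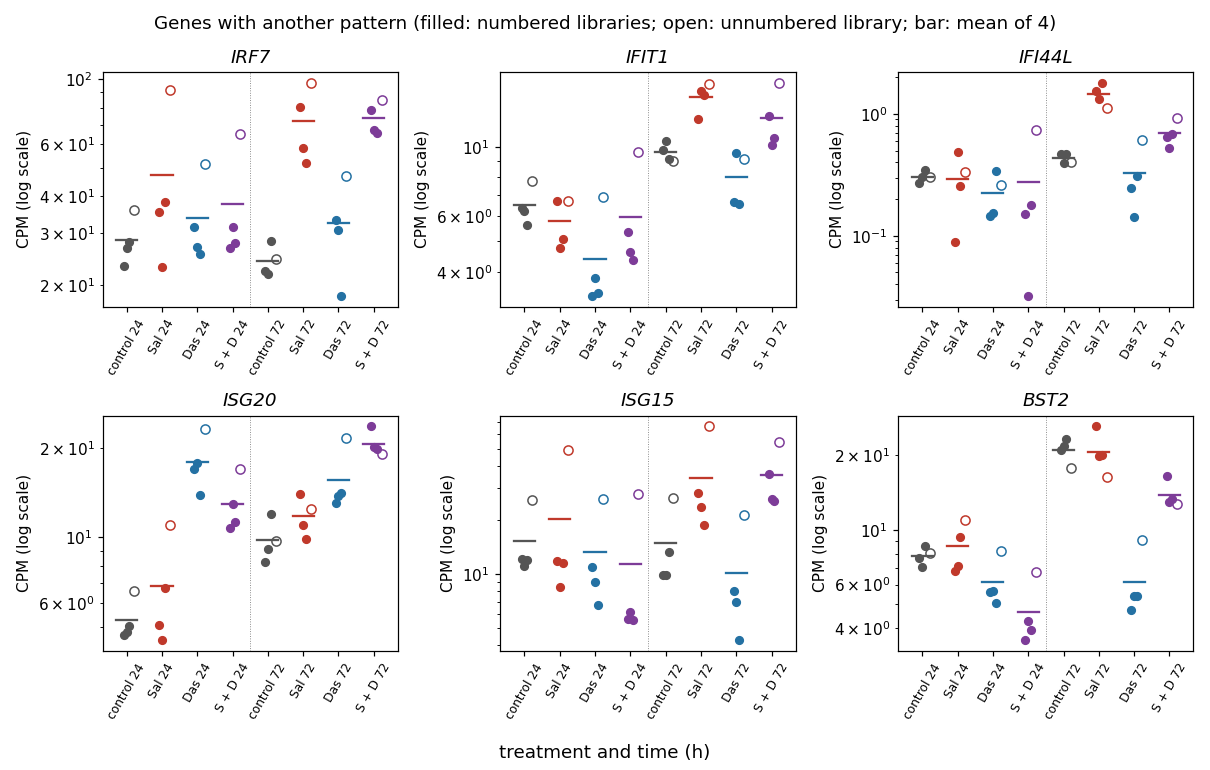
CPM on a log scale of 6 genes that did not follow the general fall, by treatment and time (filled points, numbered libraries; open points, unnumbered library; bars, mean of 4). IRF7 rises to 71.8 ± 20.9 CPM with Sal at 72 h, BST2 is lowest with Das at 72 h among the 72 h groups, and the open points of ISG15 lie above the filled ones in each condition.

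Most class I genes fell with Sal at 72 h. Of the 11 class I members, 9 fell with Sal, as did 5 with Das and 5 with S + D, and none rose in these comparisons. Of all genes tested, 26.8%, 9.36% and 27.9% fell. At an unadjusted p under 0.05 the numbers that moved were 10, 11 and 8, and DESeq2 called 9, 6 and 6 lower and 0, 0 and 0 higher. Their median log2 fold change was -1.01, -0.69 and -0.57. In the numbered libraries alone, 9, 9 and 7 fell.

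B2M (GRCh37 chr15:45003556-45011049), the light chain shared by class I molecules, stood at 782, 712, 627 and 593 CPM in the control at 72 h, 338, 388, 380.5 and 333 for Sal, 514, 542, 573 and 532 for Das and 586, 424, 432 and 435 for S + D. Every treated library lay below every control, and every S + D library lay above every Sal library, with no call in the direct test (log2 fold change 0.38, SE 0.12, adjusted p = 0.0548). It fell with Sal (log2 fold change -0.93, SE 0.12, adjusted p = 3.41e-06) and with S + D (log2 fold change -0.55, SE 0.12, adjusted p = 0.000629), but did not pass the test with Das (log2 fold change -0.34, SE 0.12, adjusted p = 0.0382). HLA-C, a classical heavy chain, stood at 504, 502, 572 and 488 CPM in the control, 309, 221, 219.7 and 292 with Sal and 450.5, 362, 380.1 and 441 with S + D, and fell with Sal (log2 fold change -1.01, SE 0.18, adjusted p = 0.000101) while S + D did not pass (log2 fold change -0.35, SE 0.18, adjusted p = 0.0885). HLA-B, the other classical chain listed, stood at 314, 310.0, 339 and 396 CPM in the control and 166, 148, 129 and 215 with Sal, and fell with Sal (log2 fold change -1.06, SE 0.24, adjusted p = 0.000987) while S + D did not pass (log2 fold change -0.33, SE 0.24, adjusted p = 0.235). HLA-E, which presents leader peptides to natural killer cells, fell with Sal and S + D. Its libraries stood at 345, 333, 351 and 368 CPM in the control, 163, 152, 138 and 227 with Sal and 186, 163, 166 and 252 with S + D, with changes of -1.05 (adjusted p = 7.46e-05) and -0.88 (adjusted p = 0.000392). HLA-F fell with Sal (log2 fold change -1.65, SE 0.34, adjusted p = 0.000341), and with S + D it passed with the replicate block and not without it (-0.96, adjusted p = 0.0161, and with the block -0.98, adjusted p = 0.000113). Of the 50-base windows of HLA-B and HLA-F, 41.4% and 21.2% also occur in other genes, so reads may have been split between them.

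The genes of peptide processing and loading fell as well, and the 5 class I members that fell with Das were TAP1, TAP2, TAPBP, PSMB8 and PSMB9. HLA-B, HLA-C and HLA-E did not pass with Das (log2 fold changes -0.60, -0.52 and -0.45, adjusted p = 0.0631, 0.0335 and 0.0619). Each passed in 3 of the 8 alternatives, and in the numbered libraries alone 4 of the 5 class I chains were called lower with Das. TAP1 stood at 63.9, 62.6, 65.2 and 87.3 CPM in the control at 72 h, 34.4, 32.7, 35.8 and 51.7 for Sal, 28.2, 30.2, 36.9 and 52.6 for Das and 41.9, 41.4, 43.2 and 63.3 for S + D, the unnumbered library being the highest in each. It fell with Sal (log2 fold change -0.87, SE 0.21, adjusted p = 0.00129) and with Das (log2 fold change -0.92, SE 0.21, adjusted p = 0.00258), the latter called except without Das replicates 1 and 2 and the unnumbered control library, the adjusted p reaching 0.0125. With S + D it did not pass (log2 fold change -0.57, SE 0.20, adjusted p = 0.0206), but did with the replicate block (-0.58, adjusted p = 1.83e-05) and in the numbered libraries alone (adjusted p = 0.00017). TAP2 fell in all 3 treatments, by 0.94, 1.18 and 0.92. TAPBP also fell in all 3, from 381 ± 46.0 CPM to 165 ± 18.1 CPM with Sal, 237 ± 40.2 CPM with Das and 156 ± 4.44 CPM with S + D. PSMB8 fell by 1.72 for Sal, 0.87 for Das and 1.13 for S + D. Of the leave-one-out fits, its Das call held only in those without Sal replicate 3, the unnumbered Sal library, the unnumbered Das library, S + D replicate 2 and the unnumbered S + D library, the adjusted p reaching 0.0379 otherwise. PSMB9, its partner subunit, fell with Das (log2 fold change -1.26, SE 0.14, adjusted p = 6.46e-06), while the values for Sal and S + D were -0.31 and -0.21 and did not pass. NLRC5, the class I transactivator, was not called in any treatment at 72 h, with values of -0.37, -0.61 and 0.54, but with the replicate block its value for S + D passed (adjusted p = 0.000332).

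**Figure D4:**
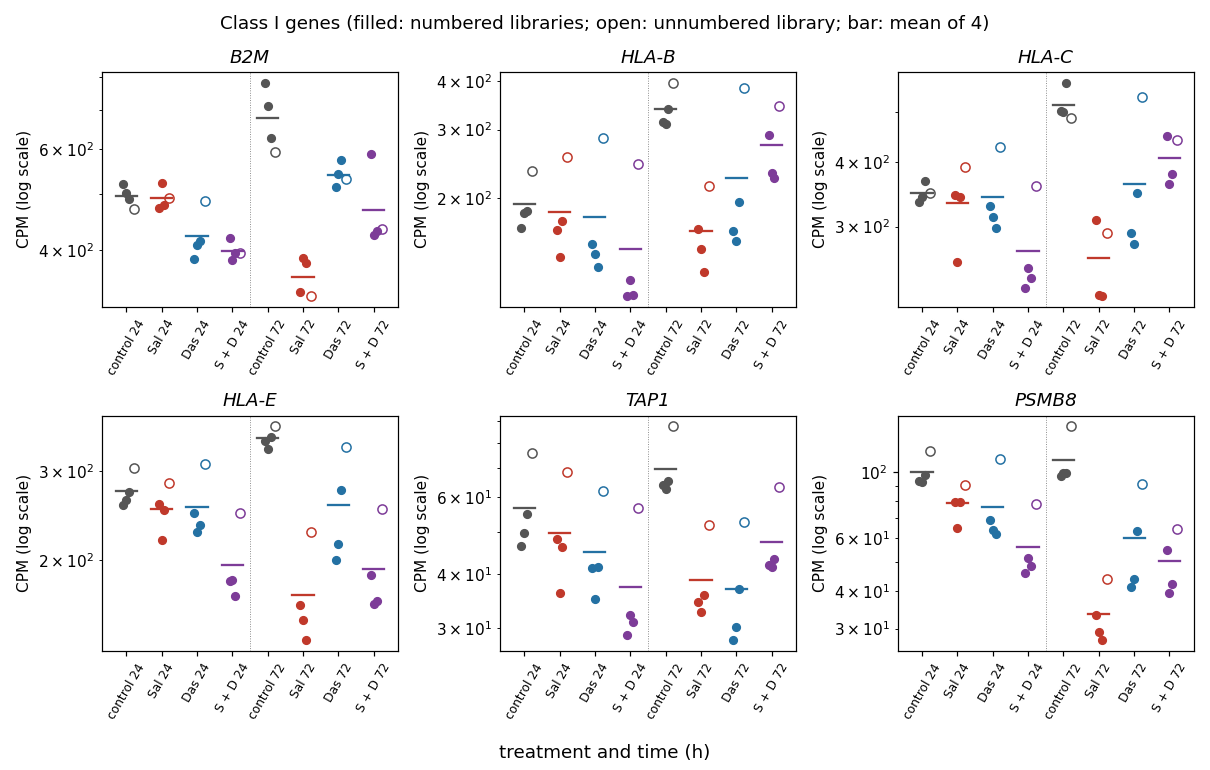
CPM on a log scale of 6 class I genes, by treatment and time (filled points, numbered libraries; open points, unnumbered library; bars, mean of 4). B2M falls from 679 ± 85.3 CPM in the control to 359.6 ± 28.6 CPM with Sal at 72 h, and its S + D libraries lie above the Sal libraries.

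CD274, which encodes the immune checkpoint ligand PD-L1, was near the limit of detection, with 2 to 20 counts in a library. It stood at 0.435, 0.450, 0.389 and 0.404 CPM in the control at 72 h and 0.0933, 0.143, 0.466 and 0.122 with Das. No comparison with the control was called, with log2 fold changes from -1.07 to -0.16 and standard errors of 0.44 to 0.49. Without Das replicate 3 at 72 h, the library at 0.466 CPM, CD274 was called lower with Das (log2 fold change -1.78, against -1.03 with all libraries).

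The combination was next compared with each drug at 72 h. Against Sal, 1 member rose and 1 fell of 50 tested, against 1.42% and 1.59% of all genes. ISG20 was higher (log2 fold change 0.81, SE 0.17, adjusted p = 0.00774) and IFITM2 lower (log2 fold change -1.80, SE 0.29, adjusted p = 0.000885). The call of ISG20 held except without Sal replicates 1, 2 and 3, the unnumbered Sal library, S + D replicates 1, 2 and 3, the unnumbered S + D library and the unnumbered control library, the adjusted p reaching 0.0329. The count was 4 higher and 2 lower in the numbered libraries alone. Against Das, 6 members rose and 10 fell of 50 tested, against 14.3% and 17.7% of all genes. The members lower with S + D than with Das were led by OAS2 (-3.04), IFITM1 (-2.61) and OAS3 (-1.40), and those higher by ISG15 (1.79), IRF7 (1.18), BST2 (1.16), NLRC5 (1.15) and PSMB9 (1.05). The call of ISG15 held except without Das replicates 1, 2 and 3, S + D replicate 1 and the unnumbered S + D library, the adjusted p reaching 0.0186.

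An interaction term compared S + D with the sum of the Sal and Das responses on the log2 scale, where 0 stands for the sum. It was above 0 for 12 members and below 0 for 0, against 3.43% and 4.09% of all genes. No member was called below 0 by DESeq2 either, which called 19 above 0, while the fit of the numbered libraries called 1 below and 18 above. At an unadjusted p under 0.05, 27 members differed from the sum in either direction. The members above 0 were MX1, GBP1, GBP2, BST2, IRF1, HLA-C, B2M, TAP1, TAP2, PSMB8, PSMB9 and NLRC5, of which 7 were class I genes. GBP2 had log2 fold changes of -2.34 with Sal, -1.09 for Das and -1.52 with S + D, and its interaction was 1.91 (SE 0.27, adjusted p = 0.000304). PSMB9 was -1.26 with Das but -0.21 with S + D, with an interaction of 1.36 (adjusted p = 0.00033). The interaction of B2M was 0.72 (SE 0.17, adjusted p = 0.00779) and that of TAP1 was 1.22 (adjusted p = 0.00841). Of the leave-one-out fits, the call of B2M held only in those without the unnumbered control library, Das replicate 3 and S + D replicate 2, the adjusted p reaching 0.025 otherwise. The call of TAP1 held only in the leave-one-out fits without the unnumbered Sal library, Das replicate 3 and the unnumbered Das library, the adjusted p reaching 0.0218 otherwise. The interaction calls of BST2, PSMB8 and HLA-C held 6, 6 and 10 times in 16, with an adjusted p of up to 0.0185, 0.0176 and 0.0138. The number of members called was 7 without control replicate 3, Sal replicate 2 or 3, or Das replicate 1 or 2. For OAS2, IFITM1 and OAS3 the interaction was 0.91, 0.85 and 0.92 and did not pass the test.

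**Figure D5:**
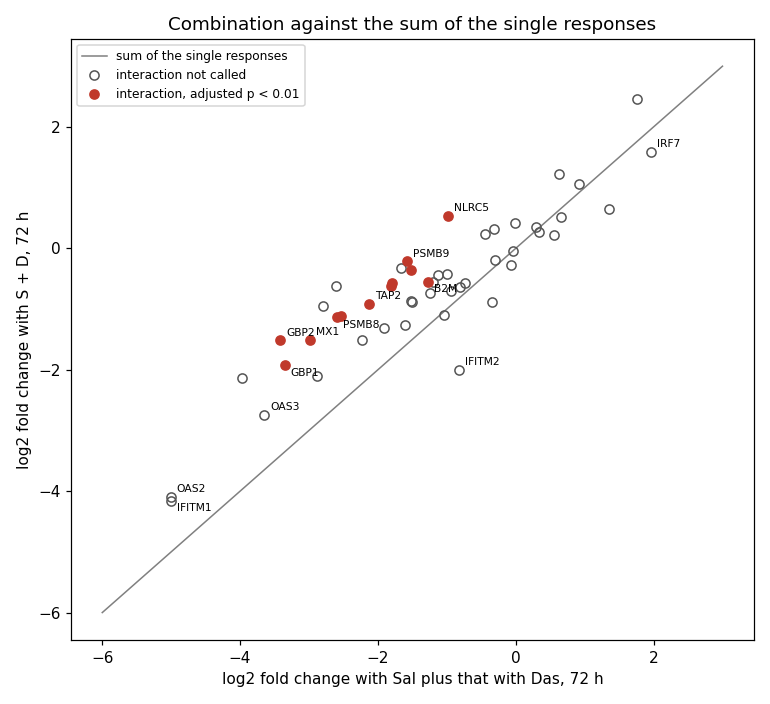
Log2 fold change with S + D at 72 h (vertical axis) against the added single-drug values (horizontal axis) for the 50 tested members, with filled points where the interaction was called and a line where both are equal. All 12 filled points lie above the line.

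With Sal at 24 h, 0 members rose and 6 fell of 50 tested, against 4.55% and 2.23% of all genes. No member rose there in the edgeR test, DESeq2 called 1 higher, and 15 members had an unadjusted p under 0.05 in either direction. With Das, 1 member rose and 8 fell of 50 tested, against 6.99% and 6.88% of all genes. With S + D, 3 members rose and 16 fell of 50 tested, against 17.1% and 16.5% of all genes. Replicate numbers were taken as paired at 24 h, and with the number as a block 16 members fell with Das and 31 with S + D. A batch term for the unnumbered libraries alone gave the same counts. The shares of all genes above are from the fit without the block. Whether these larger counts are particular to the members was not tested. At 24 h numbered libraries that share a number correlated at 0.13 to 0.32, inside the -0.52 to 0.35 of pairs with different numbers. Pairs of unnumbered libraries correlated at 0.59 to 0.67. The members called with the block and not without it, lower unless marked, were, with Sal, IFIT2 (higher), OAS1, IFI44 and IRF1, with Das IFIT1, IFITM2 (higher), GBP2, PARP9, PARP14, SAMD9, TAP1, PSMB8 and PSMB9, and with S + D IFITM2, OAS2, MX1, ISG15, IFI35, PARP9, PARP14, SAMD9, RIGI, DDX60, HLA-B, HLA-C, HLA-F, TAP1 and PSMB9. In the numbered libraries alone, 10 fell with Sal, as did 24 with Das and 32 with S + D. The number that fell with S + D was 10 without S + D replicate 3, and the number that fell with Sal was 1 without control replicate 2 or 3.

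GBP1 fell in all 3 treatments at 24 h. It stood at 42.8, 41.4, 43.0 and 41.3 CPM in the control, 22.8, 25.0, 22.1 and 14.0 for Sal, 17.6, 16.7, 17.4 and 14.4 for Das and 11.2, 10.2, 11.2 and 7.79 for S + D. No treated group overlapped with the control, and S + D lay below Sal in every library. The log2 fold changes were -1.01, -1.33 and -2.03 (adjusted p = 0.00055, 2.06e-05 and 1.07e-07). OAS3 stood at 74.3, 73.7, 79.2 and 69.1 CPM in the control, 55.9, 51.6, 50.5 and 35.0 for Sal, 40.5, 40.6, 43.5 and 34.9 for Das and 23.7, 23.0, 21.6 and 24.6 for S + D, and fell by 0.63, 0.87 and 1.64. The Sal call of OAS3 held except without control replicates 1, 2 and 3, the adjusted p reaching 0.0156. OASL stood at 1.60, 1.95, 1.98 and 2.33 CPM in the control, 1.21, 0.901, 1.13 and 1.34 for Sal, 1.15, 1.11, 0.905 and 1.16 for Das and 0.723, 0.799, 0.778 and 1.08 for S + D, and fell with S + D (log2 fold change -1.18, SE 0.18, adjusted p = 8.23e-05). Its changes with Sal and Das were -0.78 and -0.84. Of the leave-one-out fits, the Sal call held only in those without Das replicate 3, the unnumbered Das library and the unnumbered S + D library, the adjusted p reaching 0.0343 otherwise. The Das call held except without control replicates 2 and 3, the unnumbered control library and Das replicate 3, the adjusted p reaching 0.0129.

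IRF1 at 24 h stood at 66.8, 66.0, 67.7 and 89.1 CPM in the control, 27.9, 26.1, 25.9 and 41.6 for Das and 27.2, 25.9, 28.1 and 46.0 for S + D, the unnumbered library being the highest in each. It fell with both (log2 fold change -1.23, SE 0.19, adjusted p = 0.00018 and log2 fold change -1.15, SE 0.19, adjusted p = 0.000124), and with Sal it passed with the block and not without it (log2 fold change -0.55, adjusted p = 0.0583, and with the block -0.54, adjusted p = 0.000251). IFITM1 stood at 7.26, 6.36, 6.84 and 7.36 CPM in the control, 3.26, 3.30, 4.57 and 5.17 for Das and 1.90, 2.24, 2.37 and 2.81 for S + D, where it fell (log2 fold change -1.54, SE 0.17, adjusted p = 2.42e-06). With Das it also fell (log2 fold change -0.75, SE 0.16, adjusted p = 0.00321), a call held except without control replicate 1 and Das replicates 1 and 2, the adjusted p reaching 0.0146. MX1 stood at 51.5, 55.0, 54.8 and 50.4 CPM in the control and 39.2, 40.0, 39.1 and 24.9 with Sal, where the unnumbered library was the lowest (log2 fold change -0.57, SE 0.12, adjusted p = 0.00614). The call of MX1 held except without control replicates 1, 2 and 3, the unnumbered control library and S + D replicates 2 and 3, the adjusted p reaching 0.0221. ISG20 moved the other way, from 4.69, 4.80, 5.02 and 6.56 CPM in the control to 17.0, 17.8, 13.9 and 23.0 for Das and 10.7, 12.9, 11.2 and 17.0 for S + D, above every control (log2 fold change 1.78, SE 0.25, adjusted p = 6.94e-05 and log2 fold change 1.33, SE 0.24, adjusted p = 0.000348). IFIT2 and IFIH1 also rose with S + D, by 0.72 and 0.46.

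Of 11 class I genes, 2 fell with Sal at 24 h, as did 1 with Das and 6 with S + D, where 2.23%, 6.88% and 16.5% of all genes fell. TAP2 stood at 47.3, 43.8, 46.6 and 49.8 CPM in the control and 36.6, 38.6, 32.6 and 34.5 with Sal, and fell in all 3 treatments, by 0.41, 0.62 and 0.95. Its Sal call held except without control replicates 1, 2 and 3, the unnumbered control library, Sal replicates 1 and 3 and the unnumbered Sal library, the adjusted p reaching 0.0238. NLRC5 stood at 18.7, 24.1, 22.3 and 27.4 CPM in the control and 17.2, 15.7, 16.7 and 14.5 with Sal, and fell with Sal (log2 fold change -0.54, SE 0.12, adjusted p = 0.00822) and S + D (log2 fold change -0.50, SE 0.12, adjusted p = 0.0035). Of the leave-one-out fits, its Sal call held only in those without control replicate 1, the unnumbered Das library and the unnumbered S + D library, the adjusted p reaching 0.0351 otherwise. Its S + D call held except without S + D replicates 1, 2 and 3 and the unnumbered control library, the adjusted p reaching 0.0141. B2M stood at 522, 504, 491 and 472 CPM in the control and 419.5, 384, 396 and 396 with S + D (log2 fold change -0.28, SE 0.08, adjusted p = 0.00622), and HLA-E fell as well (log2 fold change -0.46, SE 0.12, adjusted p = 0.00664). The call of B2M held except without control replicate 1, S + D replicates 2 and 3 and the unnumbered S + D library, the adjusted p reaching 0.0219. The call of HLA-E held except without control replicates 2 and 3, the unnumbered control library and S + D replicates 1, 2 and 3, the adjusted p reaching 0.0266. HLA-B, HLA-C and TAP1 were called with S + D in the fit with the block and not in that without it, at log2 fold changes of -0.42, -0.37 and -0.60 (adjusted p = 0.00307, 0.00496 and 1.78e-05), where the block also called all 11 class I members lower. Without it their adjusted p was 0.327, 0.0761 and 0.0633. The same held for TAP1 with Das (adjusted p = 0.389 without it and 0.00767 with it) and for ISG15 with S + D (adjusted p = 0.644 and 0.00455).

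The time points were compared in a fit of all 32 libraries. From 24 to 72 h in the control, 5 members rose and 0 fell of 50 tested, against 2.0% and 0.76% of all genes. The members that rose were BST2 (1.42), IFIT2 (0.79), IFITM3 (0.62), IFIT5 (0.53) and B2M (0.45). No member was lower at 72 h in the edgeR test or in DESeq2 (which called 8 higher), 21 had an unadjusted p under 0.05, and in the numbered libraries alone 15 were higher and 1 lower. The call of IFIT5 held in 28 of 32 leave-one-out fits, that of IFITM3 in 28 and that of B2M in 26, with B2M at an adjusted p of up to 0.0319 without control replicate 1 at 72 h.

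The Sal response was lower at 72 h than at 24 h for 15 members and higher for 0, against 13.7% and 8.21% of all genes. DESeq2 called 0 higher and the numbered libraries 3, and 22 members had an unadjusted p under 0.05. The largest differences were those of OAS2 (log2 fold change -3.51, SE 0.40, adjusted p = 2.47e-07), IFITM1 (log2 fold change -2.97, SE 0.39, adjusted p = 2.21e-06) and XAF1 (log2 fold change -2.59, SE 0.54, adjusted p = 0.000443). B2M (-0.90), HLA-C (-0.92), HLA-E (-0.92), TAPBP (-1.05), PSMB8 (-1.35) and TAP2 (-0.53) were the class I genes among them. The Das response differed for 1 member, IFITM3 (log2 fold change -1.21, SE 0.17, adjusted p = 0.000349), and was higher for 0, against 0.174% and 0.0522% of all genes. DESeq2 and the numbered libraries called 3 and 6 lower and 0 and 0 higher, with 11 at an unadjusted p under 0.05. The S + D response was lower at 72 h for 11 members and higher for 1, NLRC5 (1.09), against 10.1% and 6.15% of all genes.

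Genes around both programs were looked at from lists chosen with earlier results of these data known. Of 22 genes of interferons, their receptors and signalling, 3 rose and 7 fell of 14 tested with Sal at 72 h, 1 and 5 for Das, and 3 and 6 for S + D. Of all genes tested at 72 h, 26.3% rose and 26.8% fell with Sal, 10.5% and 9.36% for Das, and 27.0% and 27.9% for S + D. The interferon genes were at or near 0, with 0 counts of IFNA1, IFNG and IFNK in every library and at most 4 counts of IFNB1. The receptor chains IFNGR2 (-1.99) and IFNAR2 (-1.46) fell with Sal at 72 h, as did SOCS1, a feedback inhibitor of this signalling (-2.80). STAT2, a transcription factor of this signalling, rose (log2 fold change 2.496, SE 0.21, adjusted p = 4.78e-08).

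Of 13 other genes of nucleic acid sensing, 1 rose and 5 fell of 11 tested with Sal at 72 h, 0 and 3 for Das, and 1 and 5 for S + D, beside 26.3% and 26.8%, 10.5% and 9.36%, and 27.0% and 27.9% of all genes. CGAS, the sensor of DNA in the cytoplasm, and STING1, its adaptor, fell with Sal (-2.79 and -1.48) and S + D (-2.99 and -2.40). Of 39 further interferon-stimulated genes, 5 rose and 14 fell of 37 tested with Sal, 3 and 14 for Das, and 8 and 14 for S + D. The lower counts come to 14 of 37 in each treatment, where 26.8%, 9.36% and 27.9% of all genes fell. APOL2 (2.15) and EPSTI1 (2.93) rose with Sal, while GBP4 (-4.92) and TRIM22 (-2.06) fell. Of 21 genes of class I loading and natural killer cell ligands, 6 rose and 9 fell of 20 tested with Sal, 2 and 6 for Das, and 6 and 7 for S + D, beside the same shares of all genes. CALR, a chaperone of the endoplasmic reticulum, rose with Sal (log2 fold change 1.56, SE 0.23, adjusted p = 1.78e-05) and RFX5, a class I and II promoter factor, fell (-1.74). The constitutive proteasome subunits PSMB5, PSMB6 and PSMB7, which PSMB8 and its relatives replace, were not called against the control at 72 h. Of 10 MHC class II genes, 4 were tested at 72 h and 3 rose with Sal, among them HLA-DMA (1.14), a loading chaperone, where 26.3% of all genes rose. Most class II chains were absent: HLA-DRB1, HLA-DQA1 and HLA-DQB1 had 0 counts, and HLA-DRA and CD74 had at most 1 and 9 in any library.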

How the data were processed

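RNA from MDA-MB-468 cells of 8 conditions (4 libraries each, 32 in all) was sequenced from TruSeq libraries, and the authors deposited raw read counts per gene. The submitters' processing notes name bcl2fastq 2.19, STAR 2.5.2, Cufflinks 2.1.1, DESeq2 and GRCh37, without roles, and the counting program, the annotation and any use of strand are not given in the sources used here. Genes that share sequence, and antisense genes, can therefore share reads. Of 48804 genes, 33132 had at least 1 count, and totals per library ran from 25692561 to 42769687. The share of counting error in the spread between libraries was not measured for single genes. It weighs most on low genes such as CD274 and IFI27, and on some genes that fell. At 72 h OAS2 had 12 to 39 counts and XAF1 8 to 12 with Sal, and IFITM1 had 15 to 29 with S + D.

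Counts were tested with edgeR 4.0.16 in R 4.3.3 (TMM factors, filterByExpr at a minimum count of 10, quasi-likelihood test, Benjamini-Hochberg adjustment over all genes tested). The 16 libraries of each time point were fitted together, with 16357 genes at 24 h and 16682 at 72 h, and the time comparisons used all 32 libraries and 17227 genes. A gene was called at an adjusted p under 0.01, and past both cutoffs also at an absolute log2 fold change above 1.5. The same steps were tested on simulated counts. The members were listed by symbol and by no measured value, but the members and the lists were drawn up with earlier results of these data known. Values in every library are given for up to 6 called members with the largest change in each of the 6 comparisons with the control and a mean of at least 1 CPM in either group, and for B2M, HLA-B, HLA-C, HLA-E, TAP1, ISG15, IRF1 and CD274. Fold changes given with no p beside them are from the same test.

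Alternatives were RLE size factors, no filter on low counts, a replicate block, a batch term for the unnumbered libraries, the numbered libraries only, only the groups compared, all 32 libraries in one fit, DESeq2 1.42.0, and each library left out in turn. The replicate numbers were checked for pairing with the control by the correlation of deviations from the group means. Every pair correlated above 0.1 for the 3 treatments at 24 h and for S + D at 72 h, which were taken as paired. Sal and Das at 72 h were not, with lowest correlations of -0.02 and 0.05, nor was S + D with either drug. Libraries with different numbers correlated at up to 0.35 at 24 h and 0.29 at 72 h, so a pairing of the numbered libraries is not shown. The count per gene of no pair of libraries in a group agreed within sampling noise (chi-square per gene 1.946 at the least over 48 pairs). Promoter sequences are from RefSeq on GRCh38.p14, where 41 of the 51 members had an entry, and gene positions in GRCh37 are from the GENCODE annotation, matched by gene identifier.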

Additional observations from a re-analysis of the deposited data

Results flagged for a closer look

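In groups of 4 libraries, 1 library stood far from the other 3 in 29 of 176 groups of named genes, where its gap to the nearest library, as a share of the group's range, passed Dixon's critical value, which chance alone passes in about 1 in 20 groups. In 24 of the 29 it was the unnumbered library. The unnumbered library was the highest, with the gap as a share of the range, for OASL in control 72 h (0.915), ISG20 in Das 72 h (0.883), IRF1 in control 24 h (0.927), IRF1 in Das 24 h (0.873), IRF1 in S + D 24 h (0.886), IRF1 in Das 72 h (0.897), BST2 in Das 72 h (0.846), IFIT3 in control 24 h (0.95), HLA-B in Das 24 h (0.877), HLA-B in S + D 24 h (0.917), HLA-C in S + D 24 h (0.834), HLA-E in S + D 24 h (0.841), TAP1 in S + D 24 h (0.886), TAP1 in control 72 h (0.895), TAP1 in Sal 72 h (0.837), TAP1 in S + D 72 h (0.916), ISG15 in control 24 h (0.931), ISG15 in Sal 24 h (0.919) and ISG15 in S + D 24 h (0.976). The unnumbered library was the lowest for MX1 in Sal 24 h (0.938), GBP2 in control 24 h (0.874), GBP2 in Sal 24 h (0.909), IFIT3 in Sal 24 h (0.849) and IFITM2 in control 72 h (0.917). A numbered library stood apart for TAP2 in S + D 72 h (highest in replicate 3, 0.883), XAF1 in S + D 72 h (highest in replicate 2, 0.878), BST2 in S + D 72 h (highest in replicate 1, 0.849), B2M in S + D 72 h (highest in replicate 1, 0.934) and CD274 in Das 72 h (highest in replicate 3, 0.867). Counts of called members are given above with and without the unnumbered libraries.

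The difference between the responses at 72 and 24 h was looked at for 22 named genes (edgeR quasi-likelihood test, adjusted p under 0.01). It passed for 20 pairs of a named gene and a treatment. Apart from 8 fixed genes, these were chosen for the largest changes, at 72 h among others, so larger responses there are partly built in. Of all genes, the Sal response was lower at 72 h for 13.7% and higher for 8.21%, and the S + D response for 10.1% and 6.15%. For the Sal response the differences in log2 fold change were GBP1 (-1.017), OAS3 (-1.676), MX1 (-1.577), TAP2 (-0.5261), IFITM1 (-2.972), OAS2 (-3.512), XAF1 (-2.592), GBP2 (-2.091), IFIT3 (-1.297), B2M (-0.9021), HLA-C (-0.9237) and HLA-E (-0.9192). For the S + D response they were OAS3 (-1.051), MX1 (-1.043), NLRC5 (1.089), IFITM1 (-2.561), OAS2 (-3.299), XAF1 (-2.288), IFIT3 (-1.454) and IFITM2 (-1.329). Negative values mean a lower response at 72 h.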

How the results depend on the processing

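No called gene among those named changed direction under any alternative run. Counts of members under the alternatives are given without the share of all genes called in the same fit. Among uncalled values at 24 h, ISG15 crossed 0 on leaving out 1 library (log2 fold change 0.38 with Sal, from -0.51 to 0.79, and -0.18 with Das, from -0.74 to 0.21) and was -0.12 with Sal in the numbered libraries, and on leaving out 1 library so did B2M with Sal and HLA-B and HLA-C with Sal and with Das. At 24 h with Sal, where 0 members rose, 1 rose with the replicate block, in the numbered libraries only, with all 32 libraries in one fit and with DESeq2, and 2 with the batch term. There 6 members fell, but 3 with no filter or with all 32 libraries, 10 with the batch term or the numbered libraries, and 1 with only the groups compared. Leaving out 1 library gave 0 to 1 higher and 1 to 7 lower. With Das at 24 h, 1 member rose and 8 fell, becoming 2 and 16 with the replicate block or the batch term and 24 lower in the numbered libraries. With S + D at 24 h, 16 fell, becoming 31 with the block or the batch term, 32 in the numbered libraries and 10 to 23 on leaving out 1 library. At 72 h the lower counts with Sal and S + D moved by less than 1.5 times (22 to 26 and 23 to 25 on leaving out 1 library). With Sal at 72 h, 2 to 6 rose on leaving out 1 library, the lowest without replicate 3 of the control or of Sal. With Das at 72 h, 1 rose, but 0 in the numbered libraries, with only the groups compared or with all 32 libraries, and 0 to 1 on leaving out 1 library, while 13 to 23 fell, 13 being without Das replicate 1. Past both cutoffs with Das, 2 members became 1 to 6 on leaving out 1 library, 6 being without replicate 3.

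For S + D against Sal, 2 called members became 5 with no filter, 8 with the replicate block or DESeq2, 10 with the batch term, 6 in the numbered libraries, 4 with only the groups compared or all 32 libraries, and 1 to 6 on leaving out 1 library. The interaction gave 12, or 21 with the block, 22 with the batch term, 19 in the numbered libraries or with DESeq2, and 7 to 16 on leaving out 1 library. The control over time gave 5, or 3 with no filter, 12 with the block, 13 with the batch term, 16 in the numbered libraries, 10 with only the groups compared, 8 with DESeq2, and 2 to 7 on leaving out 1 library. The time difference of the Sal response gave 15, or 26 in the numbered libraries. That of the Das response gave 1, or 2 with no filter, 6 with the block, the batch term or the numbered libraries, 3 with DESeq2, and 1 to 5 on leaving out 1 library. That of the S + D response gave 12, or 19 in the numbered libraries. Fits of fewer groups or libraries have fewer samples, and the cause of the other moves was not tested. In the comparisons with numbers taken as paired the block ended no call of a member. The numbers did not pair S + D with Sal or Das at 72 h. Low genes such as CD274, IFI27 and OASL rest on few counts.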

Other observations

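Among genes outside the members, chosen after their values were seen, STAT2 rose in all 3 treatments at 72 h, with log2 fold changes of 2.496, 1.27 and 2.17 for Sal, Das and S + D. IFNGR2, a chain of the gamma-interferon receptor, fell in all 3 (-1.99, -1.26 and -2.25). ERAP2, which trims peptides for class I, fell with Sal (-1.77), and ULBP1, a ligand of natural killer cells, rose (1.38).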
